A study of Canis lupus familiaris with 8 samples.

Results

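Entry into mitosis is set by CDK1, a kinase that becomes active only when it is bound to a cyclin and freed of inhibitory phosphate. WEE1 and PKMYT1 add that phosphate, the CDC25 phosphatases remove it, and active CDK1 turns off the former and turns on the latter, so that the step behaves as a switch. In monolayers of kidney epithelial cells, tension on the adhesion protein E-cadherin has been described to control the passage from G2 into mitosis through the WEE1 protein. Described here are the transcripts of 10 genes of this switch, chosen by name as regulators of CDK1 activation from the 37952 genes of the count table. They are the inhibitory kinases WEE1 and PKMYT1, the phosphatases CDC25A, CDC25B and CDC25C, the kinase CDK1, the cyclins CCNB1, CCNB2 and CCNA2, and CCNF, an F-box cyclin that binds no kinase of its own and directs proteins to degradation. All 10 passed the filter on low counts and were among the 14571 genes tested. The genes and the lists below were chosen with earlier results of these data known. Shares of all tested genes set beside them are descriptions, not tests. Protein and phosphorylation were not measured in these data.

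The cells were MDCK GII, a line of dog kidney epithelium, grown overnight on a collagen-coated silicone membrane. In 4 stretch wells the membrane was held at 18% static strain, equal in both in-plane directions, for 2 hours, and 4 control wells were not strained. The wells of a group are called technical quadruplicates and were spread over several devices, so p-values measure the spread between wells of 1 line and not between independent cultures. Poly(A)-selected, stranded libraries were sequenced to between 27047358 and 32478887 counted reads per well.

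All 10 listed markers of kidney tubule epithelium were detected, summing to 5142 to 5717 CPM per control well and 5440 to 5539 per stretch well. CPM are read counts set to the same library size for every well, with TMM factors that even out differences in library composition. The kidney cadherin gene CDH16 was low, with a control mean of 1.27 CPM. Of the fibroblast markers 4 of 7 had no count in any well, and 1 of 7, 1 of 4 endothelial and 1 of 5 leukocyte markers reached a mean of 1 CPM (PDGFRA, KDR and CD14). The leukocyte genes PTPRC and CD3E had no count.

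After 2 hours of strain the transcripts of WEE1 and of cyclin F were lower than in control wells, by 19.1% and 22.2% of their mean levels. Those of the cyclins CCNB1, CCNB2 and CCNA2 were lower in all 4 same-numbered pairs of wells, but none of the 3 passed the test, and neither did CDK1 or any CDC25 gene. In edgeR's test the calls for WEE1 and CCNF were made with the replicate number entered as a block, which compares wells of equal number. What equal numbers share is not given, so this pairing is uncertain. Without the block, the edgeR quasi-likelihood test called 0 of the 10 genes, and 0% of all tested genes passed (adjusted p under 0.05). At an unadjusted p under 0.05 it found 3 of the 10, all lower (CCNA2, CCNF and WEE1), beside 1.76% of all tested genes. DESeq2 without the block called 2 of the 10, WEE1 and CCNF, both lower, where it called 0.0549% of the genes it tested as lower (adjusted p of 7.3e-05 and 0.0366). The limma-voom fit without the block called 0 of the 10 and 0% of all tested genes. Unblocked edgeR with no filter on low counts called WEE1 (adjusted p = 0.0263). With the block, 2 of the 10 passed in edgeR's test, both lower, where 0.172% of all tested genes passed in that direction and 0.528% passed as higher. At an unadjusted p under 0.05 the blocked fit found 6 of the 10 lower, against 3.9% of all tested genes.

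WEE1, the kinase that places the inhibitory phosphate on CDK1 in the nucleus, lies on chromosome 21 (33445593 to 33464455, plus strand) and shares no exon with another gene. Its level was 121, 124, 123 and 120 CPM in control replicates 1 to 4, and 103, 91.8, 95.4 and 103 CPM in stretch replicates 1 to 4. Every stretch well was below every control well, and the control wells lay close together (mean 122 ± 1.82 SD, n = 4, against 98.4 ± 5.76 after stretch). The log2 change was -0.31 ± 0.05 (SE) both without and with the block, and the adjusted p in edgeR was 0.114 and 0.00246 in turn. By p in the blocked fit it ranked 27 of 14571 genes. The within-pair differences were -0.23, -0.43, -0.36 and -0.21 on the log2 scale for replicates 1 to 4. The call for WEE1 was kept when any 1 pair was left out of the blocked fit, with edgeR's adjusted p between 7.9e-04 (without pair 3) and 0.038 (without pair 1). In replicates 3 and 4 alone (2 wells against 2, no block) neither WEE1 nor CCNF passed (edgeR, adjusted p = 0.126 and 0.0609).

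PKMYT1, the membrane-bound relative of WEE1 that also inhibits CDK1 (chromosome 6, 38645560 to 38655092, plus strand), had 32.9, 29.6, 28.3 and 26.6 CPM in the control wells and 33.0, 29.7, 23.9 and 22.3 CPM in the stretch wells. The groups overlapped. Replicates 1 and 2 were level between the groups (log2 differences of 0.0029 and 0.0040), while replicates 3 and 4 were lower after stretch by -0.24 and -0.25. The log2 change with the block was -0.12 ± 0.06 (edgeR, adjusted p = 0.663). A test of the difference between the replicate sets, an interaction of stretch with replicates 1 and 2 against 3 and 4, gave -0.25 ± 0.13 on the log2 scale (edgeR, unadjusted p = 0.0687, adjusted p = 0.893). The value is uncertain for another reason. The annotation places 1782 of the 1930 exon bases of PKMYT1 (92.3%) inside exons of PAQR4 on the opposite strand, and the strand setting of the counting is not given in the sources used here. PAQR4 itself was level, at 40.7 ± 5.82 CPM in control wells and 40.8 ± 2.99 CPM in stretch wells (n = 4 each). Its blocked log2 change was 0.0073 (edgeR, adjusted p = 0.992).

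**Figure D1:**
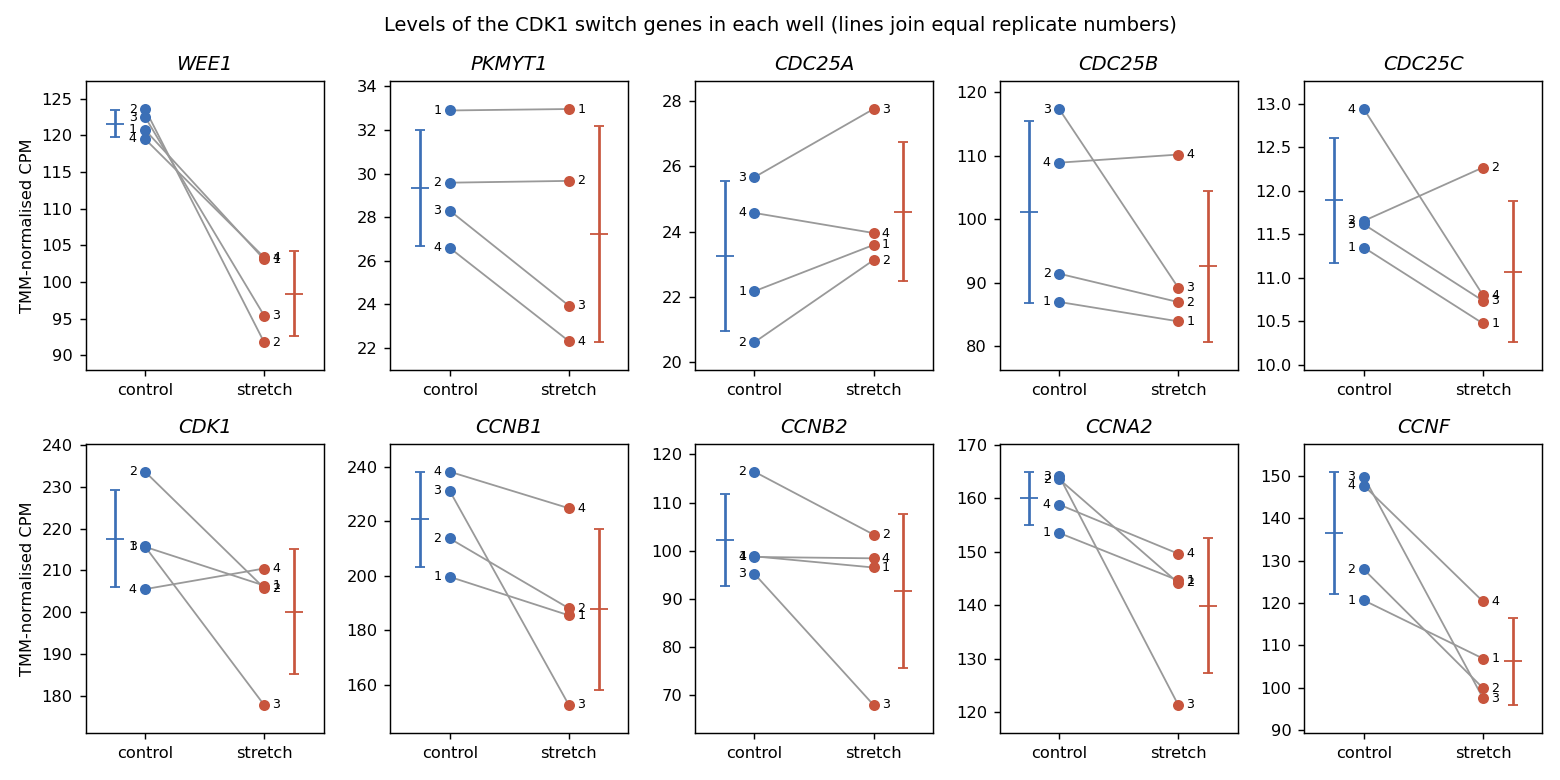
Normalised level (TMM-normalised CPM, vertical axis of each panel, not starting at 0) of the 10 genes in the 4 control wells (blue) and 4 stretch wells (red), with grey lines joining wells of equal replicate number, digits giving that number, and horizontal ticks with bars showing mean ± SD. WEE1, CCNA2 and CCNF show no overlap between the groups, and stretch replicate 3 is the lowest well for CDK1, CCNB1, CCNB2, CCNA2 and CCNF.

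None of the 3 phosphatase genes passed in any fit. CDC25A, which also acts at the start of S phase, was the 1 gene of the 10 with a higher mean after stretch. The gene (chromosome 20, 41231962 to 41255400, plus strand) had 22.2, 20.6, 25.7 and 24.6 CPM in the controls and 23.6, 23.1, 27.7 and 24.0 CPM in stretch wells. The groups overlapped, 3 of 4 pairs were higher, and the log2 change with the block was 0.08 ± 0.06 (edgeR, adjusted p = 0.825).

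CDC25B, the phosphatase credited with the first activation of CDK1 in late G2 (chromosome 24, 18004858 to 18014203, minus strand), had 86.9, 91.4, 117 and 109 CPM in the controls and 83.9, 86.9, 89.2 and 110 CPM in stretch wells. The groups overlapped. Within pairs 1, 2 and 4 the log2 differences were -0.05, -0.07 and 0.02, and pair 3 differed by -0.40. The blocked log2 change was -0.13 ± 0.06 (edgeR, adjusted p = 0.581). CDC25C, which is amplified by the feedback from active CDK1 (chromosome 11, 25954590 to 25991631, minus strand), was the least abundant gene of the 10, with 11.3 to 12.9 CPM in the controls and 10.5 to 12.3 in stretch wells. It was lower in 3 of 4 pairs, and the blocked log2 change was -0.10 ± 0.09 (edgeR, adjusted p = 0.854).

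CDK1 itself (chromosome 4, 13555896 to 13576243, plus strand) had 216, 234, 216 and 205 CPM in the controls and 206, 206, 178 and 210 CPM in stretch wells. It was lower in 3 of 4 pairs, and the stretch well of replicate 3 lay far below the other 3 stretch wells. The blocked log2 change was -0.12 ± 0.05 (edgeR, unadjusted p = 0.0187, adjusted p = 0.399) and -0.07 when pair 3 was left out (edgeR, adjusted p = 0.702).

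CCNB1 encodes the main cyclin partner of CDK1 in mitosis (chromosome 2, 53489618 to 53497458, plus strand). Its level was 200, 214, 231 and 238 CPM in the controls and 185, 188, 153 and 225 CPM in stretch wells. The groups overlapped through stretch replicate 4, and the difference within pair 3 (-0.60 on the log2 scale) was more than 3 times that of any other pair (from -0.18 to -0.08). The log2 change with the block was -0.24 ± 0.09 (edgeR, adjusted p = 0.525). Left without pair 3 it was -0.12 (edgeR, adjusted p = 0.13).

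CCNB2, the other B-type cyclin of the set (chromosome 30, 24361281 to 24383523, plus strand), had 98.8, 116, 95.2 and 98.7 CPM in the controls and 96.5, 103, 68.0 and 98.4 CPM in stretch wells. Pairs 1 and 4 were nearly level, and pair 3 differed by -0.49 on the log2 scale. For CCNB2 the blocked log2 change was -0.17 ± 0.07 (edgeR, adjusted p = 0.52) and -0.07 without pair 3 (edgeR, adjusted p = 0.782).

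CCNA2, the cyclin that partners CDK2 in S phase and CDK1 in G2 (chromosome 19, 19144640 to 19154711, plus strand), had 154, 164, 164 and 159 CPM in the controls and 145, 144, 121 and 150 CPM in stretch wells. The groups did not overlap. Its log2 change of -0.20 ± 0.05 in the blocked fit and -0.19 ± 0.06 in the other passed in neither (edgeR, unadjusted p = 0.00248 and 0.00854, adjusted p = 0.148 and 0.999). Without pair 3 it was -0.12 (edgeR with the block, adjusted p = 0.233). Of its 5952 exon bases, 424 (7.12%) also lie in exons of EXOSC9 on the opposite strand and 136 in exons of BBS7 on the same strand. EXOSC9 was higher in all 4 pairs without passing (log2 change 0.14 with the block, edgeR adjusted p = 0.519).

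**Figure D2:**
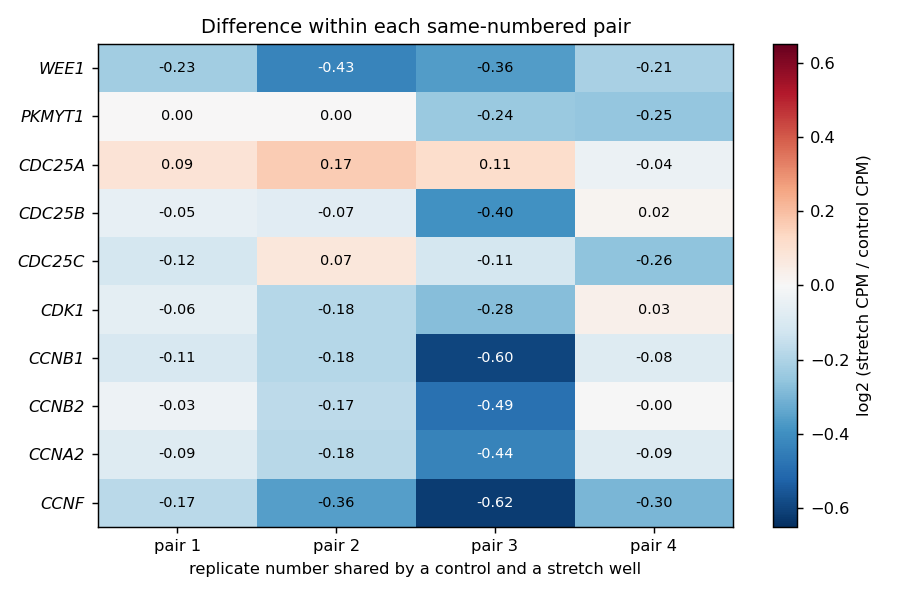
Log2 ratio of stretch to control CPM (colour scale and printed values) for each of the 10 genes (rows) within each same-numbered pair of wells (columns). Pair 3 holds the lowest value for CDC25B, CDK1, CCNB1, CCNB2, CCNA2 and CCNF, whereas for WEE1 pair 2 is lowest at -0.43.

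CCNF, whose product names the F-box family and marks several S and G2 phase proteins for degradation, had the lowest log2 change of the 10. It lies on chromosome 6 (39016472 to 39035536, minus strand). Its level was 121, 128, 150 and 148 CPM in the controls and 107, 99.96, 97.6 and 120.4 CPM in stretch wells. The groups did not overlap, but stretch replicate 4 (120.4 CPM) came within 0.3 CPM of control replicate 1 (120.6 CPM). Control wells of replicates 3 and 4 were higher than those of 1 and 2, and the within-pair differences were -0.17, -0.36, -0.62 and -0.30 on the log2 scale. Both fits gave a log2 change of -0.36, with an SE of 0.06 in the blocked fit (edgeR, adjusted p = 0.0151) and 0.08 in the other (0.456). In the blocked fit CCNF did not pass without pair 2 (edgeR, adjusted p = 0.111) or without pair 4 (0.098), and passed without pair 1 (0.0182) or pair 3 (6.4e-04). A lncRNA gene on the opposite strand, LOC102153171, shares 398 of its 3665 exon bases (10.9%). It held 86 counts over all 8 wells against 28960 for CCNF.

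As a group, 9 of the 10 genes had a lower mean, where 7553 of all 14571 tested genes had a log2 change below 0 without the block. In every pair 5 were lower (WEE1, CCNB1, CCNB2, CCNA2 and CCNF), as were 7.84% of all tested genes. In 3 of the 10 (WEE1, CCNA2 and CCNF) every stretch well was below every control well, where this held for 1.24% of all tested genes. Their median log2 change with the block was -0.15, beside -0.0022 for all tested genes. In bulk RNA, fewer cells in G2 and mitosis and less RNA per such cell cannot be told apart.

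The differences were uneven over the wells. Stretch replicate 3 was the lowest of the 8 wells for 5 of the 10 genes (CDK1, CCNB1, CCNB2, CCNA2 and CCNF), and it was the highest stretch well for CDC25A. WEE1 did not share this pattern, since its lowest well was stretch replicate 2. With pair 3 left out, the median log2 change of the 10 genes with the block was -0.09, while WEE1 was at -0.29 and CCNF at -0.28. None of the 10 passed in the interaction test of replicates 1 and 2 against replicates 3 and 4, where edgeR called 0 of 14571 genes. The lowest unadjusted p among the 10 was that of PKMYT1.

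**Figure D3:**
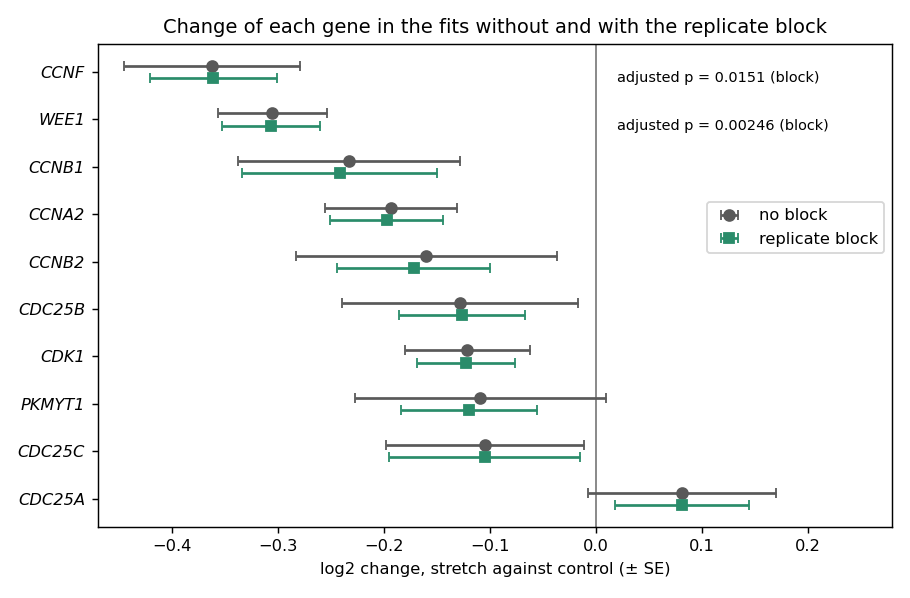
Log2 change from control to stretch (horizontal axis) of each gene, with bars of 1 SE, in the edgeR fit without a block (grey circles) and with the replicate block (green squares). The estimates nearly coincide between the fits while most bars shorten with the block, and adjusted p-values are printed for CCNF and WEE1, the genes that passed with it.

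Levels were compared between genes per kilobase of annotated exon, which joins the exons of all listed transcripts of a gene. In control wells CCNB1 was highest at 143 ± 11.3 CPM per kb (n = 4), followed by CCNB2 at 69.2 ± 6.47. CCNF (37.3 ± 3.95), CDC25B (33.0 ± 4.7) and WEE1 (32.1 ± 0.48) came next and neighbours among them differed by less than the larger SD. CDK1 (30.0 ± 1.61) and CCNA2 (26.9 ± 0.83) followed, each below the gene before it by more than either SD. CDK1 lay below CDC25B by less than the SD of CDC25B, so these 2 were not ranked. The order rests on annotated length too: CDK1 and CCNB1 had 218 and 221 CPM in control wells, over 7253 and 1543 exon bases. PKMYT1 (15.2 ± 1.38) and CDC25A (14.8 ± 1.45) could not be ranked, and CDC25C was lowest at 3.65 ± 0.22. After stretch, WEE1 (25.96 ± 1.52 CPM per kb) stood below CDK1 (27.6 ± 2.07), by less than the SD of CDK1.

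Ratios within a well remove what 2 genes share. The log2 ratio of WEE1 to CDK1 counts was -0.84 ± 0.06 without strain and -1.02 ± 0.11 with it (n = 4 wells each) and was lower after stretch in 4 of 4 pairs. One stretch well, replicate 3 at -0.90, lay above the lowest control well at -0.92. The ratio of WEE1 to CCNB1 differed by less than the spread, at -0.86 ± 0.12 and -0.92 ± 0.20. For WEE1 against CDC25B it was 0.28 ± 0.21 in control and 0.10 ± 0.16 in stretch wells, lower in 3 of 4 pairs. CCNF was lower against CCNA2 in 4 of 4 pairs, from -0.23 ± 0.13 to -0.40 ± 0.10. These ratios are given as descriptions with no test.

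The other genes of the pathway were read from 10 lists. With the block 5 of their 170 tested genes passed, all lower (edgeR). Of all tested genes, 0.172% passed as lower in that fit and 0.528% as higher. Without the block 0 of the 170 passed. Log2 changes without the block were below 0 in 135 of the 170 and in 7553 of all 14571 tested genes. At an unadjusted p under 0.05 there were 30 of the 170 lower and 1 higher, where 1.76% of all tested genes were lower and 2.22% higher. DESeq2 without the block called 3 of the 170, all lower, beside 0.0549% of its tested genes, and limma-voom called 0. Among activators of the switch, the PLK1, Aurora A and checkpoint kinase list had 13 of 14 tested genes lower, with a median log2 change of -0.09 with the block and 0 calls. PLK1, the kinase that promotes WEE1 destruction and CDC25 activity, went from 133 ± 14.6 to 105 ± 12.03 CPM (n = 4) without passing (log2 change -0.33, edgeR with the block, adjusted p = 0.16). BORA and TPX2, cofactors of Aurora A, the kinase that activates PLK1, were at -0.22 and -0.21 (edgeR with the block, adjusted p = 0.119 and 0.0763). BORA is uncertain, since 348 of its 2129 exon bases also lie in exons of DIS3 on the opposite strand. Of the 9 tested CDK1 partner and activating kinase genes 0 passed, and the small CDK-binding subunits CKS2 and CKS1B were at -0.19 and -0.16, lower in every pair. CKS2 shares 336 of its 1205 exon bases with an opposite-strand gene that held 156 counts in all.

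The phosphatase arm that opposes CDK1 was level. The 12 tested genes of the Greatwall and PP2A list had log2 changes without the block from -0.04 to 0.04, with a median of 0.0065 with the block, and 0 passed. The list of 14-3-3 proteins, which hold CDC25 away from CDK1, and of the ubiquitin ligase adaptors for WEE1 and CDC25 had a median of -0.01 over 15 genes, and 0 passed. Its widest value was that of SFN, a 14-3-3 gene, at 0.34 ± 0.16 with the block (edgeR, adjusted p = 0.721).

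Of the 6 stress and p53 inhibitors of CDK1, CDKN1B passed as lower (log2 change -0.31, edgeR with the block, adjusted p = 0.00807). It shares 239 of its 597 exon bases with an opposite-strand gene that held 55 counts over all wells against 8004 for CDKN1B. The p53 targets CDKN1A and GADD45A and their relative GADD45B were higher in all 4 pairs, as were 8.45% of all tested genes, and none passed (0.45, 0.20 and 0.33 with the block, edgeR adjusted p = 0.381, 0.148 and 0.24).

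**Figure D4:**
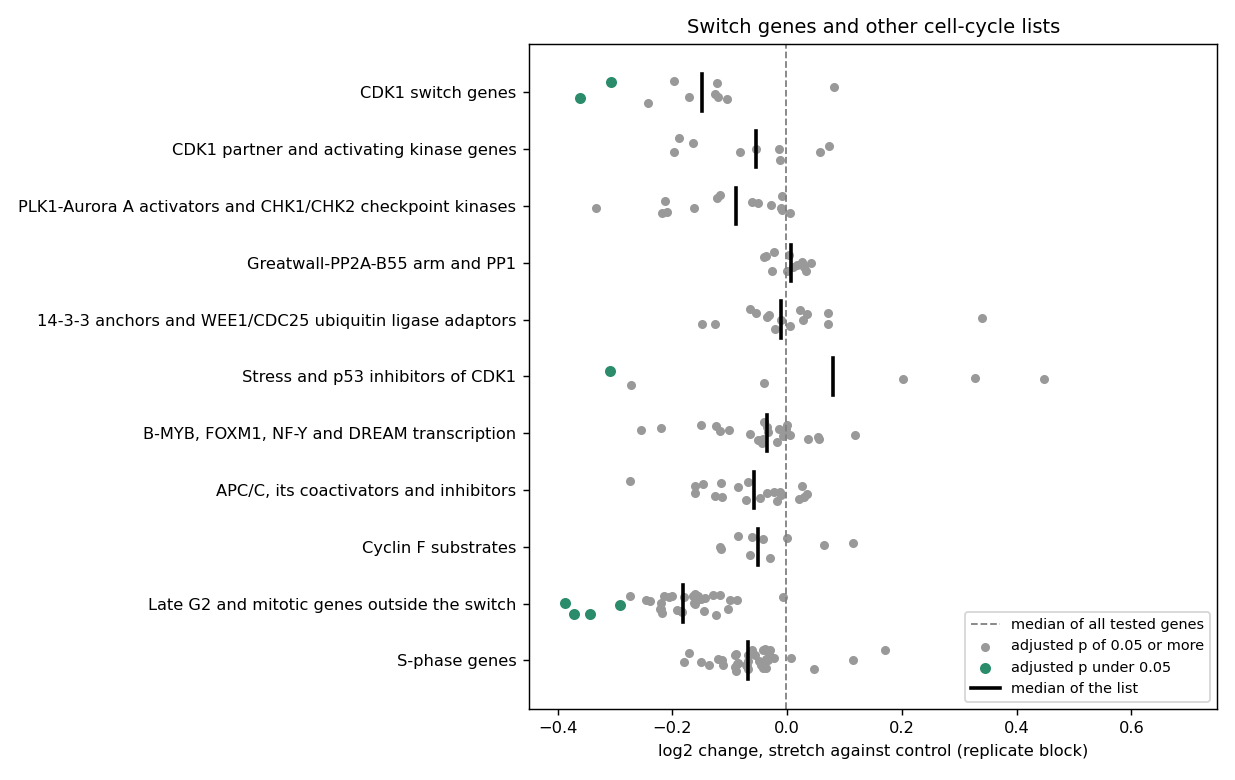
Log2 change from control to stretch with the replicate block (horizontal axis) of every tested gene in the switch and in 10 other cell-cycle lists (rows), with green points for an adjusted p under 0.05, black ticks for list medians and a dashed line for the median of all tested genes. The late G2 and mitotic list and the switch genes have the lowest medians, -0.18 and -0.15.

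Transcription factors that drive the late cell-cycle genes gave 0 calls among 23 tested, with a median of -0.03 with the block. FOXM1, which activates CCNB1 and CDC25B, was lower in every pair at -0.22, and LIN54, the DNA-binding subunit of the DREAM complex, was at -0.25 (edgeR with the block, adjusted p = 0.178 and 0.192). For the anaphase-promoting complex and its regulators, 16 of 20 were lower and 0 passed. FBXO5, which restrains that complex until mitosis, was at -0.27 (edgeR with the block, adjusted p = 0.148). Of the 10 cyclin F substrates 0 passed, with values without the block between -0.11 and 0.12. The substrates RRM2 and CDC6, a ribonucleotide reductase subunit and a replication licensing factor, were at -0.06 and 0.11 with the block (edgeR, adjusted p = 0.65 and 0.417).

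Genes of late G2 and mitosis outside the switch had the lowest median of the lists, -0.18 with the block. All 34 tested were lower, and with the block 4 passed, where 0.172% of all tested genes passed as lower. These were SGO1 (-0.37), CKAP2L (-0.39), TTK (-0.29) and CENPF (-0.34), with edgeR's adjusted p of 0.00406, 0.0149, 0.0248 and 0.0337. Without a block the adjusted p were 0.114, 0.25, 0.999 and 0.938 in turn (edgeR). With a block of 2 levels (replicates 1 and 2, 3 and 4) SGO1, CKAP2L and TTK passed and CENPF did not (edgeR, adjusted p = 0.532). These 4 genes act in chromosome cohesion, the spindle, the spindle checkpoint and the kinetochore. Stretch replicate 3 was the lowest of the 8 wells for each of the 4. Pair 3 also held their largest drop (-0.49, -0.64, -0.48 and -0.50 on the log2 scale). S-phase genes had a median of -0.07 over 35 genes, of which 31 were lower, and 0 passed in either direction. In every pair 9 of the 35 were lower and 2 higher, beside 7.84% and 8.45% of all tested genes. CDC45, a helicase subunit, was higher in every pair at 0.17 and MCM2 was at -0.14 (edgeR with the block, adjusted p = 0.249 and 0.265).

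Likeness to 3 of the genes was measured by Pearson's r of log2 CPM over the 8 wells, among 9895 tested genes outside the 10 with at least 10 CPM on average. The coefficients are given as a description with no p, and they include the difference between the groups. Those most like WEE1 were CNTRL, ARIH2, SGO1 and CENPO (r from 0.95 to 0.96), which had log2 changes of -0.21, -0.17, -0.37 and -0.20 without the block. For CCNF they were PSRC1, PLK1, DBF4 and CDCA2 (0.97 to 0.98). For CCNB1 they were LOC487020, KIF20B, CKAP2 and RNF220 (0.96 to 0.99). LOC487020, protein-coding and listed under no further symbol, has 1 exon of 1401 bases on chromosome 29. It went from 128 ± 10.9 to 111 ± 18.1 CPM, with stretch replicate 3 lowest at 90.4. How reads shared between similar genes were counted is not given in the sources used here. After removal of each group's mean, r was 0.94 to 0.99 for the 4 genes named with CCNB1, 0.92 to 0.96 for those with CCNF, and 0.53 to 0.80 for those with WEE1.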

How the data were processed

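Raw read counts per gene over exons were deposited by the authors in 1 table for all 8 wells. Per the submitters' processing notes, FastQC 0.11.8, Trim Galore 0.6.5, STAR 2.7.3a and Subread featureCounts were used; the strand setting, the treatment of reads shared between genes and the genome build are not given in the sources used here. Coordinates are those of the deposited table, and the start and end of all 10 members were identical in RefSeq's table for the dog genome UU_Cfam_GSD_1.0, which gave chromosome names. Exon lengths (another quantity in the deposited table) were used for levels per kb. No columns were left unmatched, and wells of 1 group differed by more than sampling noise (chi-square per degree of freedom 5.56 to 26.8), so all 8 were kept.

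Counts of all genes were tested in R 4.3.3 with edgeR 4.0.16 (glmQLFit with robust estimation, glmQLFTest, TMM factors, filterByExpr with a minimum count of 10 and a minimum total of 15), two-sided, with Benjamini-Hochberg adjustment over 14571 genes. The SE is the log2 change divided by the square root of the F statistic. The planned model had no block. Deviations of same-numbered wells from their group means had r across genes of 0.108 to 0.328 over the 4 numbers, each above 0.1. Wells of different number had r from -0.295 to 0.243, and only 1 of the 4 numbers correlated best with its own partner. The check therefore does not establish that equal numbers are true pairs. The blocked fit, with the number as a factor, is printed where it changes a call. The labels do not say what equal numbers share. The scripts were tested on simulated data. DESeq2 1.42.0 and limma 3.58.1 were alternatives. The text names all 10 members, at most 4 genes of each list with the smallest p in the blocked fit, and the 4 genes most like WEE1, CCNB1 and CCNF. LOC102153171, PAQR4, EXOSC9 and BBS7 are named for shared exons. The members and lists were chosen with earlier results of these data known. Figures were drawn with matplotlib 3.10.9.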

Additional observations from a re-analysis of the deposited data

Results flagged for a closer look

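The CDK1 level of stretch replicate 3 was 177.8 CPM while the other 3 stretch wells had 206 to 210 CPM, which sets 1 well apart by Dixon's test. It was the 1 such case among the 20 groups of 4 wells examined (10 genes in each of 2 groups), and chance gives about 1 in 20. The same well was lowest of all 8 for CCNB1, CCNB2, CCNA2 and CCNF. Whether a fault of that well had a part in this was not tested.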

How the results depend on the processing

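Of 250 log2 changes of single members under 25 alternatives, 231 kept their direction and side of the threshold, 18 kept the direction and passed (11 of WEE1, 7 of CCNF), and 1 turned, PKMYT1 at 0.0051 in replicates 1 and 2 only. The count of members called, 0 in edgeR without a block, was 2 with the replicate block, with a block of 2 levels (replicates 1 and 2, 3 and 4), in DESeq2 without and with the replicate block and in limma-voom with it. It was 1 without the count filter and in replicates 1 and 2 only, 0 in replicates 3 and 4 only, 0 without any 1 well, and 1 to 2 with the block and without 1 pair. Over all genes the count, 0 without a block, was 102 with the replicate block, 58 with 2 levels, 40 and 145 in DESeq2 without and with the block, 122 in limma-voom with it, 11 without the filter, 51 in replicates 1 and 2 only, 25 in replicates 3 and 4 only, 0 to 12 without 1 well, and 43 to 186 with the block without 1 pair. For the pathway lists the same settings gave 5, 4, 3, 12, 8, 2, 2 and 0 genes, 0 without any 1 well, and 1 to 8 with the block without 1 pair. The members' median log2 change was -0.14 without a block, -0.12 in replicates 1 and 2 only, -0.23 in replicates 3 and 4 only, and between -0.21 and -0.10 without 1 well. The causes were not tested. Other size factors moved no call of a member.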
